A study of Mus musculus with 18 samples.

Results

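The tricarboxylic acid (TCA) cycle and its refilling by pyruvate carboxylase were followed through 9 genes, Cs, Idh3a, Idh2, Ogdh, Suclg1, Fh1, Mdh2, Mdh1 and Pcx. They were chosen by symbol, as enzymes of the cycle and its refilling, with earlier results of these data known. All 9 were found among the 41388 listed features. The libraries came from the soleus and the gastrocnemius of mice that lack Site-1 Protease (gene Mbtps1) in skeletal muscle and of floxed controls. Knockout mice carried the floxed Site-1 Protease allele together with a Cre transgene (HSACre). Its promoter, that of human skeletal actin, works in skeletal muscle fibres and not in the other cells of a muscle. Control mice carried the floxed allele without Cre, so both groups had the floxed allele and no group carried Cre alone. All mice were 12 weeks old, ate standard chow and were fasted for 4 h before harvest. In each muscle the titles give 4 knockout and 5 control libraries, 18 in all, although the series text states 4 per group. No label says that the libraries of a group came from separate mice, or whether both muscles came from the same mice, so the p-values may measure only the spread between these samples.

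The TCA cycle burns acetyl groups in the mitochondrial matrix and hands their electrons to the respiratory chain, and muscle fibres run it hardest during sustained work. Citrate synthase joins acetyl-CoA to oxaloacetate, and the isocitrate and oxoglutarate dehydrogenases then release carbon dioxide and reduce NAD. Succinyl-CoA ligase, succinate dehydrogenase, fumarase and malate dehydrogenase rebuild the oxaloacetate. Intermediates that leak away are replaced by anaplerosis, for which pyruvate carboxylase, which makes oxaloacetate from pyruvate, is the classic route, while muscle also uses the purine nucleotide cycle and amino acid transamination. Site-1 Protease is a Golgi protease that releases membrane-bound transcription factors such as the sterol regulatory element-binding proteins.

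Library totals ran from 39.0 to 78.2 M counts. The 9 genes together took 0.429 to 0.490% of all counts in the soleus and 0.255 to 0.316% in the gastrocnemius, and the smallest count of any of them in any library was 1937 (Pcx), so all 9 passed the filter on low counts. Muscle fibre markers (9 genes, among them Ckm, Acta1 and Ttn) summed to at least 178929 counts per 1000000 library counts (CPM) in every library. The targeted gene itself was not lower in the knockouts: Mbtps1 averaged 37.6 ± 3.58 CPM in knockout and 31.5 ± 2.40 CPM in control gastrocnemius, and 34.5 ± 2.51 CPM in knockout and 32.3 ± 1.497 CPM in control soleus (SD, n = 4 and 5). Its log2 fold change was 0.25 in the gastrocnemius (adjusted p = 0.0945) and 0.10 in the soleus (adjusted p = 0.754). Counts over a whole gene cannot show the loss of single exons, so they do not check the labels. CPM here are on library sizes scaled by the trimmed mean of M-values (TMM), and levels of different genes are compared only as CPM per kilobase of listed exon length.

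Upstream sequences are shown for 3 genes picked after their values were seen, Pcx and Idh2, which lay farthest apart between the muscles of control mice in opposite directions, and Cs, which differed least there at TMM scaling. Pcx lies at chr19:4510472-4621752 on the plus strand, Idh2 at chr7:80094846-80115392 on the minus strand and Cs at chr10:128337832-128362479 on the plus strand (GRCm38, as in the deposited files). The windows are the 250 bases before a RefSeq start site (GRCm38.p6), read along the gene, with bases inside a listed exon removed, which leaves 208 for Idh2. Capitals mark an E-box (CACGTG) or an SP1 GC box (GGGCGG or its reverse complement CCGCCC). The other genes lie at chr9:54586511-54604661 (Idh3a, plus strand), chr11:6291633-6356642 (Ogdh, plus), chr6:73248382-73276911 (Suclg1, plus), chr1:175600374-175625635 (Fh1, minus), chr5:135778480-135790398 (Mdh2, plus) and chr11:21556787-21572367 (Mdh1, minus). Pcx has a second annotated start inside its own span, and gene-level counts do not tell which start was used.
Pcx, start 1 (chr19:4510222-4510471, plus strand): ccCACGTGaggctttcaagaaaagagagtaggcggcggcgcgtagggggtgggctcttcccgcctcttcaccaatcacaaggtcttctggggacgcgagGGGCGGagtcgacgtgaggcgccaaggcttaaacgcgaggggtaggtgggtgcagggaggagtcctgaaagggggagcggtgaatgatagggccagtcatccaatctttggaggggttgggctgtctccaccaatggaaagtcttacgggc
Pcx, start 2 (chr19:4594069-4594318, plus strand): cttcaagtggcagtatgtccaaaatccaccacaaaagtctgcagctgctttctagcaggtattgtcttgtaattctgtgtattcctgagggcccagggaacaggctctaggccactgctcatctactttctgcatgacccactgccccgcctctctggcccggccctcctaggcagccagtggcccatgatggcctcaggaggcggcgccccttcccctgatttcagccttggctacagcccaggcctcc
Idh2 (chr7:80115393-80115600, minus strand): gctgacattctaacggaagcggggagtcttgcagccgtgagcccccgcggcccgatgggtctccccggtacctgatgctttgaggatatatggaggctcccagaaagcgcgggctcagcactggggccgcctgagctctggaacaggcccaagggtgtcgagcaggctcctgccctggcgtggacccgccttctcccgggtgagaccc
Cs (chr10:128337477-128337726, plus strand): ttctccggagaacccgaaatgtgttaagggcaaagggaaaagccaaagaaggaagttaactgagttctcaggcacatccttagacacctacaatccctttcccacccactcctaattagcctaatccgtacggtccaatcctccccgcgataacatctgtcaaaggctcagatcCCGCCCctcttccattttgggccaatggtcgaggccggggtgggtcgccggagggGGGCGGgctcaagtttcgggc

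The RefSeq table held 14 windows for 8 of the 9 genes, several of them overlapping (Ogdh alone has 6). The E-box was present at Pcx start 1 and at 3 Ogdh windows (2 of them overlapping), against 6.02% of all 32851 windows searched. The SP1 GC box was present in 8 windows of 7 genes, against 32.7% of all windows. Idh2 is among them, with both of its matches in the 42 exon bases next to the start that are left out of the sequence shown. A cAMP response element (TGACGTCA) was present at Mdh2 and at 3 overlapping Ogdh windows, against 1.55%. No window held the ERR element TCAAGGTCA, the NRF1 site, the ETS core CCGGAAG of GABP sites or the sterol response element TCACNCCAC, which were present in 0.387%, 3.74%, 6.91% and 1.05% of all windows. Both strands and the full 250 bases were searched, and no matches to different motifs overlapped. A match is a description of the letters and not of a factor's binding, and no match says only that these letters are not in these windows.

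**Figure D1:**
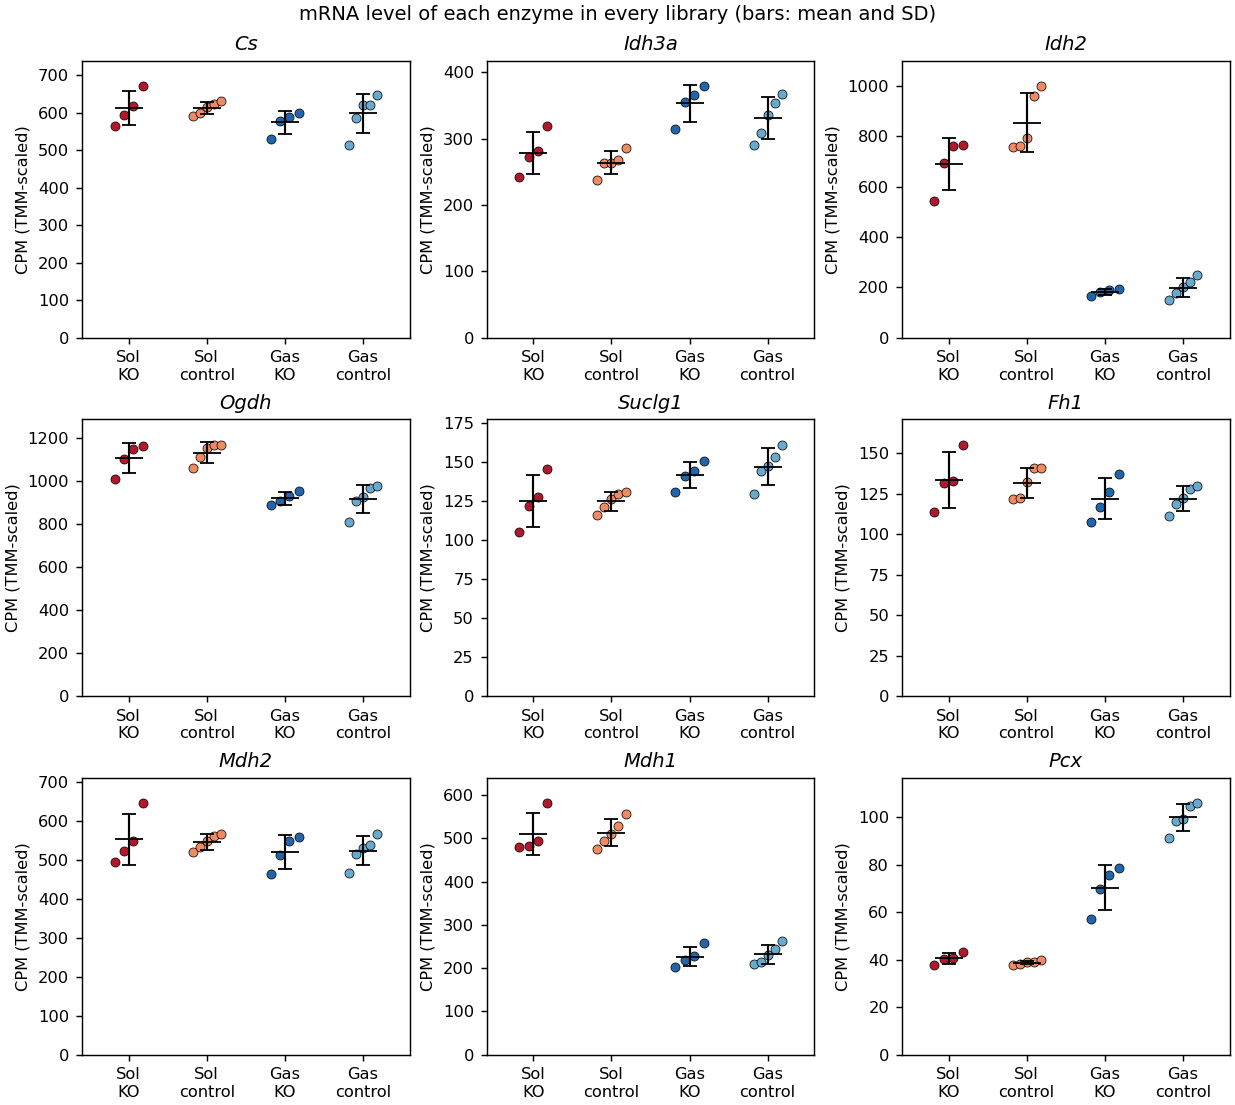
Level of each of the 9 mRNAs in every library, in CPM on TMM-scaled library sizes (y axes start at 0), for soleus knockout, soleus control, gastrocnemius knockout and gastrocnemius control; points are libraries, bars the mean and SD. Pcx sits between 57.3 and 78.7 CPM in knockout gastrocnemius, below all control gastrocnemius libraries (91.3 to 106 CPM), while Idh2 and Mdh1 separate the muscles.

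In the gastrocnemius 1 of the 9 mRNAs was lower in the knockout, that of the anaplerotic enzyme Pcx, which fell by 29.5%. Pcx had 70.0, 75.7, 57.3 and 78.7 CPM in knockout gastrocnemius, against 98.5, 104.7, 106, 91.3 and 99.4 CPM in control gastrocnemius. Every knockout library lay below every control library. The means were 70.4 ± 9.48 CPM in knockouts and 100 ± 5.88 CPM in controls (SD, n = 4 and 5), a log2 fold change of -0.50 (SE 0.09, fold 0.705, 95% interval 0.617 to 0.805, adjusted p = 0.00811). Over all 16393 genes tested, 619 (3.78%) passed the threshold in this comparison, 329 of them (2.01%) lower, and the groups did not overlap for 8.41% of all genes. Pcx had rank 108 by p. In bulk tissue, fewer cells of a type and less RNA per cell cannot be told apart.

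Markers of other cells were summed beside this value. Adipocytes, in which Pcx is known to be abundant, had 7 markers (among them Adipoq and Plin1) that summed to 143 to 202 CPM in knockout and 146 to 234 CPM in control gastrocnemius. None of the 7 passed the threshold or was at 0 in every library, and all 7 had negative log2 fold changes (median -0.44). Slow-fibre markers (8 genes, among them Myh7 and Tnnt1) summed to 437 to 972 CPM in knockout and 956 to 1479 CPM in control gastrocnemius, with 1 of 8 lower and all 8 log2 fold changes negative (median -0.75). Fast-fibre markers (8 genes, among them Myh4 and Actn3) summed to 127284 to 139194 CPM in knockout and 133460 to 157968 CPM in control gastrocnemius, with 1 of 8 lower and all 8 negative (median -0.22). Macrophage markers (6 genes) summed to 108 to 202 CPM in knockout and 82.7 to 118 CPM in control gastrocnemius, with none of 6 past the threshold. Of the 6, 5 had positive log2 fold changes and 1 a negative one (median 0.73). Satellite cell markers (3 genes) summed to 6.72 to 11.9 CPM in knockout and 4.15 to 6.68 CPM in control gastrocnemius, with 1 of 3 higher (median 0.85). Brown adipocyte markers summed to 1.84 to 2.42 CPM in knockout and 0.266 to 1.45 CPM in control gastrocnemius, with 1 of the 2 that passed the filter higher, of 3 listed. Of 5 fibroblast, 4 endothelial and 4 Schwann cell markers none passed the threshold. All 5 fibroblast (median 0.36) and all 4 endothelial (median 0.16) log2 fold changes were positive, and all 4 Schwann cell ones (median -0.22) negative. None of these markers was at 0 in every library of a group, and their part in the Pcx result was not tested. The gene Lrfn4 lies within the span of Pcx on the other strand, shares no exon bases with it and had 9.35% of its mean count.

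The enzymes of the cycle proper did not pass the threshold in the gastrocnemius, and for each the knockout and control libraries overlapped. Citrate synthase (Cs), whose activity is the usual gauge of mitochondrial content, had 531, 590, 601 and 579 CPM in knockout gastrocnemius, against 588, 514, 620, 648 and 622 CPM in control gastrocnemius. Its fold was 0.962 with a 95% interval of 0.863 to 1.07. The knockout values lie within the range of the controls. A near-copy, Csl, aligns with it over 1522 bases at 91.9% identity and had 0.187% of its mean count (the rule for reads that fit both is not stated).

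Among the 3 decarboxylating enzymes, Idh3a encodes the catalytic subunit of the NAD-linked isocitrate dehydrogenase, Idh2 the NADP-linked mitochondrial enzyme and Ogdh the first component of the oxoglutarate dehydrogenase complex. Idh3a averaged 353 ± 28.1 CPM in knockout and 331 ± 31.7 CPM in control gastrocnemius (fold 1.07, 95% interval 0.949 to 1.199). Idh2 averaged 183 ± 12.5 CPM in knockout and 199.7 ± 38.2 CPM in control gastrocnemius (fold 0.916, 95% interval 0.762 to 1.102). Ogdh averaged 919 ± 29.2 CPM in knockout and 915 ± 67.1 CPM in control gastrocnemius (fold 1.00, 95% interval 0.909 to 1.11). The Idh2 interval is the widest of these 3, and its 5 control libraries spread from 150 to 248 CPM.

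The genes of the later steps of the cycle also had folds near 1. Suclg1, the shared subunit of the succinyl-CoA ligases, had a fold of 0.964 (95% interval 0.869 to 1.07). Fumarase (Fh1) had a fold of 1.00 (95% interval 0.894 to 1.12), the mitochondrial malate dehydrogenase Mdh2 one of 0.995 (0.892 to 1.11) and its cytosolic counterpart Mdh1, a member of the malate-aspartate shuttle, one of 0.977 (0.865 to 1.103). Across the 9 genes the log2 fold changes ran from -0.50 to 0.09 with a median of -0.03, beside a median of 0.02 over all genes tested. With library totals in place of TMM, the small values of Cs, Suclg1, Fh1, Mdh1 and Mdh2 changed sign while none passed the threshold, and Pcx stayed lower (log2 -0.45, adjusted p = 0.0122).

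**Figure D2:**
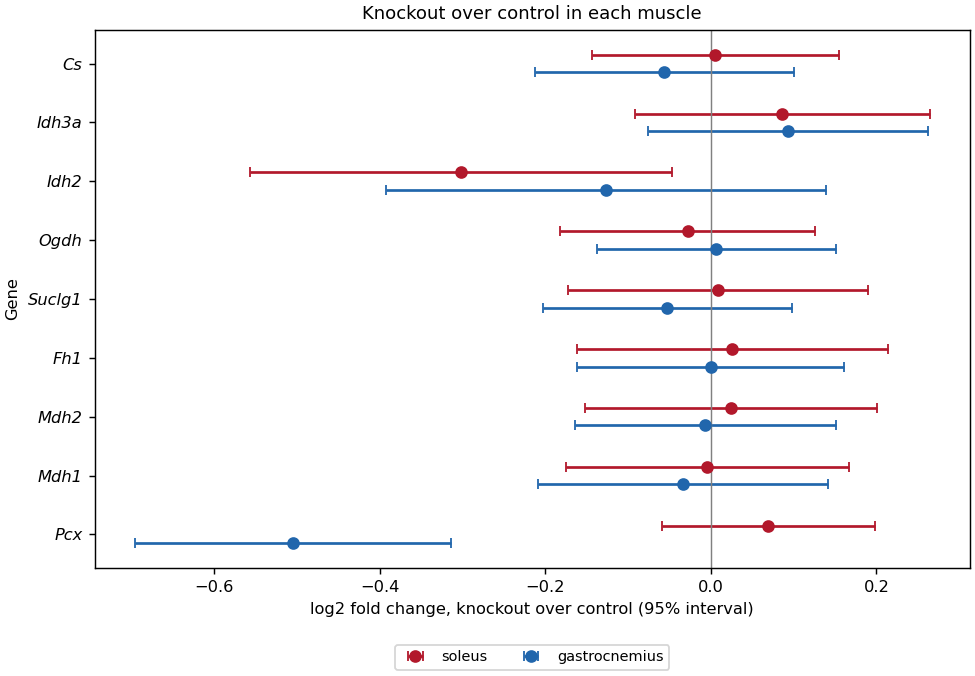
Log2 fold change of knockout over control for each gene (points) with its 95% interval (bars), for the soleus (red) and the gastrocnemius (blue), TMM scaling. The gastrocnemius value of Pcx (-0.50) lies apart; the soleus interval of Idh2 also excludes 0, though its adjusted p is 0.519. At library totals the gastrocnemius values of Cs, Suclg1, Fh1, Mdh1 and Mdh2 and the soleus value of Mdh1 change sign.

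In the soleus none of the 9 genes passed the threshold. Only 10 of 18087 genes tested did (0.0553%; 0.0387% higher and 0.0166% lower), although 1481 had an unadjusted p under 0.05, and DESeq2 called 166 genes and also none of the 9. The groups overlapped for each of the 9, beside 2.55% of all genes without overlap. Pcx had 40.8, 40.3, 37.9 and 43.1 CPM in knockout soleus, against 39.1, 38.4, 37.9, 38.9 and 39.8 CPM in control soleus. The knockout values spread around and above the narrow control range. The fold was 1.05 with a 95% interval of 0.960 to 1.15 (log2 0.07, SE 0.06, adjusted p = 0.832), which leaves out the 29.5% reduction seen in the gastrocnemius.

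The largest difference in the soleus was that of Idh2, one of the main sources of NADPH in the matrix. Idh2 had 760, 766, 545 and 694 CPM in knockout soleus, against 795, 757, 999.7, 962 and 763 CPM in control soleus. The higher 2 knockout libraries overlap the lower controls, while 2 knockout libraries lie below and 3 control libraries above the shared range. The means were 691 ± 103 CPM in knockouts and 855 ± 116 CPM in controls (SD, n = 4 and 5), a log2 fold change of -0.30 (SE 0.12, fold 0.811, 95% interval 0.680 to 0.968, adjusted p = 0.519 by edgeR). The value kept its sign when each library was left out in turn (-0.35 to -0.21) and never passed the threshold. Slow-fibre markers summed to 13345 to 19576 CPM in knockout and 20218 to 25053 CPM in control soleus, all 8 with negative log2 fold changes (median -0.35) and none past the threshold; their part in the Idh2 value was not tested.

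The other 7 genes had soleus folds between 0.981 (Ogdh) and 1.06 (Idh3a), and for each the knockout and control libraries overlapped. Cs averaged 613 ± 44.6 CPM in knockout and 613 ± 16.9 CPM in control soleus (fold 1.00, 95% interval 0.905 to 1.11). Mdh2 averaged 552 ± 65.9 CPM in knockout and 545 ± 20.01 CPM in control soleus (fold 1.02, 95% interval 0.900 to 1.15). For both genes the means were close while the knockout libraries spread more widely than the controls. Soleus knockout library 39 had the highest level of Cs, Idh3a, Idh2, Suclg1, Fh1, Mdh2 and Mdh1 among the 4 knockout soleus libraries.

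Whether the knockout effect differed between the muscles was tested directly, as the soleus effect minus the gastrocnemius effect over all 18 libraries. Of 18494 genes, 13 passed the threshold (0.0703%; 0.0595% higher and 0.0108% lower; 999 had an unadjusted p under 0.05, and DESeq2 called 52), and Pcx was 1 of them. Its difference was 0.57 on the log2 scale (SE 0.11, adjusted p = 0.0380), rank 12 by p, against a median of -0.03 over all genes. The call is at the edge of the threshold. Leaving out 1 library at a time kept the difference between 0.52 and 0.62, but the adjusted p ran from 0.0230 to 0.108 and missed the threshold in 15 of 18 cases; it was kept only without gastrocnemius knockout 7, gastrocnemius knockout 9 or soleus knockout 40. Scaling to library totals gave an adjusted p of 0.0511. The differences of the other 8 genes ran from -0.18 (Idh2) to 0.06 (Suclg1), each with an adjusted p of 1.

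Between the muscles the cycle genes did not move as a block. In control mice Idh2, Mdh1 and Ogdh were higher and Pcx, Idh3a and Suclg1 lower in the soleus, a muscle richer in slow fibres, than in the gastrocnemius, while Cs, Mdh2 and Fh1 did not pass the threshold at TMM scaling. In this comparison 9122 of 18494 genes passed (49.3%), so that 6 of 9 is near the background and says little about the genes as a list. Scaling to library totals moved the median log2 fold change of all genes to 0.35, against 0.08 with TMM, and the split of calls to 8386 higher and 2122 lower, against 5074 higher and 4048 lower. Under that scaling 6 of the 9 genes were higher and 1 (Pcx) lower: Cs, Mdh2 and Fh1 became higher (log2 0.30, 0.33 and 0.37), Idh3a lost its call (-0.07) and Suclg1 changed sign (0.03). Relative to the median of all genes Cs stood at -0.05 and Mdh2 at -0.02 under both scalings, and Fh1 at 0.02 with TMM and 0.03 with library totals. A change of scaling moves each gene and that median by nearly the same amount. The closeness of these values was thus fixed in advance and does not tell which scaling is right.

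Idh2 showed the widest gap. It had 795, 757, 999.7, 962 and 763 CPM in control soleus, against 199.9, 150, 224, 248 and 178 CPM in control gastrocnemius. The lowest soleus library exceeded the highest gastrocnemius library by a wide margin, and the muscles did not overlap for 36.7% of all genes in controls and 32.4% in knockouts. The log2 fold change was 2.10 (SE 0.13, fold 4.28, 95% interval 3.57 to 5.15, adjusted p = 4.0e-11), and it was 1.92 (fold 3.78, adjusted p = 1.5e-09) between the muscles of knockout mice.

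The cytosolic Mdh1 was the other strongly soleus-high gene. It had 510, 555, 529, 475 and 494 CPM in control soleus, against 230, 209, 214, 243 and 264 CPM in control gastrocnemius. The groups were far apart, with a log2 fold change of 1.14 (SE 0.08, fold 2.21, 95% interval 1.97 to 2.48, adjusted p = 8.2e-11). Its mitochondrial counterpart Mdh2 had 545 ± 20.01 CPM in control soleus and 523 ± 37.0 CPM in control gastrocnemius (log2 0.06, adjusted p = 0.519; 0.33 and past the threshold at library totals). Knockout mice gave 1.17 for Mdh1 (fold 2.25, adjusted p = 7.1e-10). A small stretch of 52 exon bases of Mdh1 overlaps Wdpcp on the other strand, whose mean count was 0.580% that of Mdh1.

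Pcx ran the other way. It had 39.1, 38.4, 37.9, 38.9 and 39.8 CPM in control soleus, against 98.5, 104.7, 106, 91.3 and 99.4 CPM in control gastrocnemius. The soleus libraries lay within a few CPM of each other and far below the gastrocnemius. The log2 fold change was -1.36 (SE 0.07, fold 0.388, 95% interval 0.350 to 0.431, adjusted p = 1.0e-12). Between the muscles of knockout mice it was -0.80 (SE 0.08, fold 0.575, 95% interval 0.513 to 0.646, adjusted p = 6.1e-08), and the gap between these values is the difference of knockout effects given above.

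Smaller shifts completed the comparison. Ogdh averaged 1131 ± 47.4 CPM in control soleus and 915 ± 67.1 CPM in control gastrocnemius (log2 0.30, SE 0.06, adjusted p = 0.000403). Idh3a averaged 264 ± 17.3 CPM in control soleus and 331 ± 31.7 CPM in control gastrocnemius (log2 -0.33, SE 0.08, adjusted p = 0.00157; -0.07 and not past the threshold at library totals). Suclg1 averaged 125 ± 6.10 CPM in control soleus and 147 ± 11.7 CPM in control gastrocnemius (log2 -0.24, SE 0.08, adjusted p = 0.0125; 0.03 and not past the threshold at library totals). Relative to the median of all genes, Idh3a stood at -0.41 and Suclg1 at -0.32 under both scalings. Here too the closeness was fixed in advance, so it does not restore the calls lost at library totals. In knockout mice 6987 of 18494 genes passed between the muscles (37.8%), among them Idh2, Mdh1 and Ogdh higher and Pcx and Idh3a lower; Suclg1 missed the threshold (log2 -0.18, adjusted p = 0.0964), and at library totals the same changes of call and sign appeared, with 6 higher and 1 lower.

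**Figure D3:**
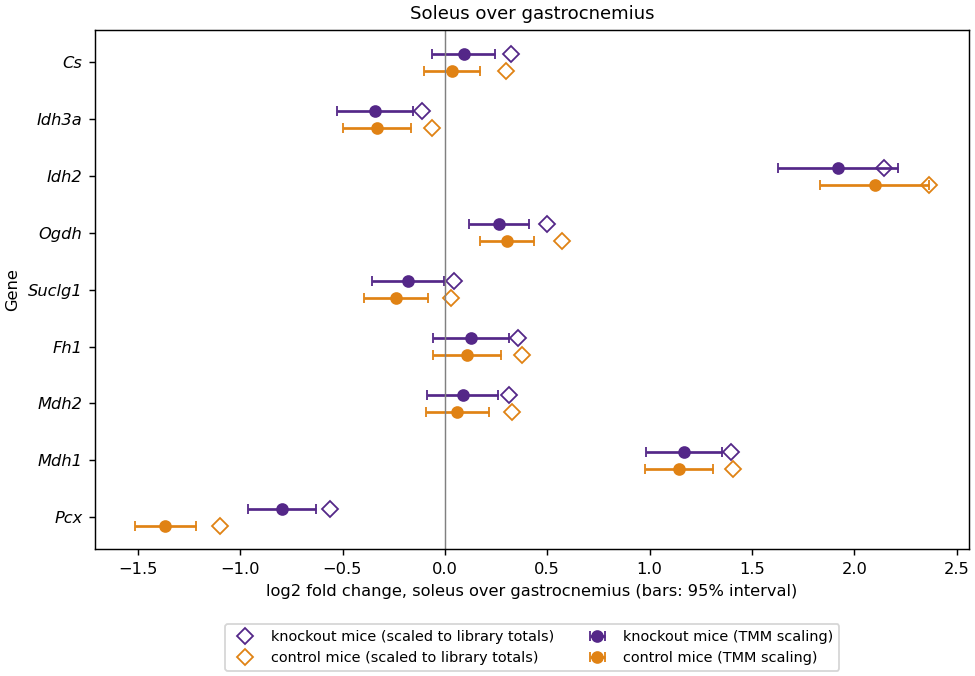
Log2 fold change of soleus over gastrocnemius for each gene in knockout mice (purple) and control mice (orange); filled points with 95% intervals use TMM scaling, open diamonds library totals. Idh2, Mdh1 and Pcx lie far from 0 on the same side in both genotypes and under both scalings, whereas the diamonds of Suclg1 lie on the other side of 0 from its points and Cs, Mdh2 and Fh1 pass the threshold only at library totals.

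Per kilobase of exon, the 9 mRNAs spanned a wide range within each muscle. In control soleus Idh2 stood first at 331 ± 44.9 CPM per kb, followed by Mdh2 (261 ± 9.58), Cs (217 ± 5.97), Ogdh (207 ± 8.69), Mdh1 (199.8 ± 12.1), Idh3a (110 ± 7.18), Fh1 (38.8 ± 2.76), Suclg1 (27.0 ± 1.32) and Pcx (9.09 ± 0.168). The library ranges of Cs, Ogdh and Mdh1 overlapped from 1 gene to the next, and all other neighbours were separate. In control gastrocnemius the order was Mdh2 (250 ± 17.7 CPM per kb), Cs (212 ± 18.3), Ogdh (168 ± 12.3), Idh3a (138 ± 13.2), Mdh1 (90.4 ± 8.66), Idh2 (77.2 ± 14.8), Fh1 (36.0 ± 2.20), Suclg1 (31.9 ± 2.53) and Pcx (23.4 ± 1.38). There Mdh2 and Cs, Ogdh and Idh3a, Mdh1 and Idh2, and Fh1 and Suclg1 overlapped.

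The knockout libraries kept this order of means in each muscle. In knockout gastrocnemius the levels ran from 249 ± 20.6 CPM per kb (Mdh2) to 16.5 ± 2.22 CPM per kb (Pcx), and only Fh1 and Suclg1 overlapped. In knockout soleus they ran from 267 ± 39.7 CPM per kb (Idh2) to 9.49 ± 0.499 CPM per kb (Pcx), and Idh2, Mdh2, Cs, Ogdh and Mdh1 formed an overlapping chain. Idh2, first in all 5 control soleus libraries, ranked between 1 and 3 in the knockout soleus libraries. Pcx was last in every library of the series.

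Ratios within a library need no scaling between libraries. Exact two-sided permutation tests compared 3 ratios of counts per kilobase in 3 comparisons, with p adjusted over the 9 tests. Pcx over Cs was 0.0872, 0.0849, 0.0631 and 0.0900 in knockout gastrocnemius, against 0.111, 0.135, 0.113, 0.0932 and 0.106 in control gastrocnemius. The groups did not overlap, though the highest knockout and the lowest control lay close. The mean log2 ratio differed by -0.46 (p = 0.0159, adjusted p = 0.0357 by exact permutation over 126 splits). With any 1 library left out the difference stayed between -0.52 and -0.34 without overlap, but the adjusted p was 0.0643 to 0.0804. That is what the smallest p of the fewer splits gives, so the call could not be kept beside the other ratio tests. With medians in place of means the adjusted p was 0.107. Several splits share the largest difference of medians, so that test could not keep the call either. In the soleus the Pcx over Cs ratio averaged 0.0440 ± 0.00495 in knockouts and 0.0419 ± 0.00132 in controls (difference 0.06, adjusted p = 0.5 by exact permutation).

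The isozyme ratios separated the muscles. Idh2 over Idh3a was 2.76, 2.455, 3.53, 3.75 and 2.69 in control soleus, against 0.551, 0.478, 0.673, 0.625 and 0.466 in control gastrocnemius. The NADP-linked enzyme thus had the higher mRNA level per kb in each control soleus library and the NAD-linked subunit in each control gastrocnemius library. The mean log2 ratio differed by 2.44. Mdh1 over Mdh2 averaged 0.765 ± 0.0281 in control soleus and 0.362 ± 0.0290 in control gastrocnemius, a log2 difference of 1.08, and Pcx over Cs averaged 0.0419 ± 0.00132 in control soleus and 0.112 ± 0.0151 in control gastrocnemius, a log2 difference of -1.40. Each of these 3 differences had p = 0.00794, the smallest that 252 splits allow, and an adjusted p of 0.0238 by exact permutation, without overlap. With medians in place of means the adjusted p of each was 0.107, past the threshold for none. For groups without overlap several splits share the largest difference of medians, so its smallest p could not pass beside the other ratio tests.

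The same isozyme ratios did not pass the threshold between genotypes. In the soleus Idh2 over Idh3a was 2.595, 2.23, 1.795 and 2.66 in knockouts, against 2.76, 2.455, 3.53, 3.75 and 2.69 in controls. The knockout values tend to the low side and overlap the lowest control. The log2 difference was -0.39 (p = 0.0794, adjusted p = 0.143 by exact permutation). In the gastrocnemius it was -0.20 (adjusted p = 0.381 by exact permutation). Mdh1 over Mdh2 differed by -0.02 in the soleus and by -0.03 in the gastrocnemius.

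**Figure D4:**
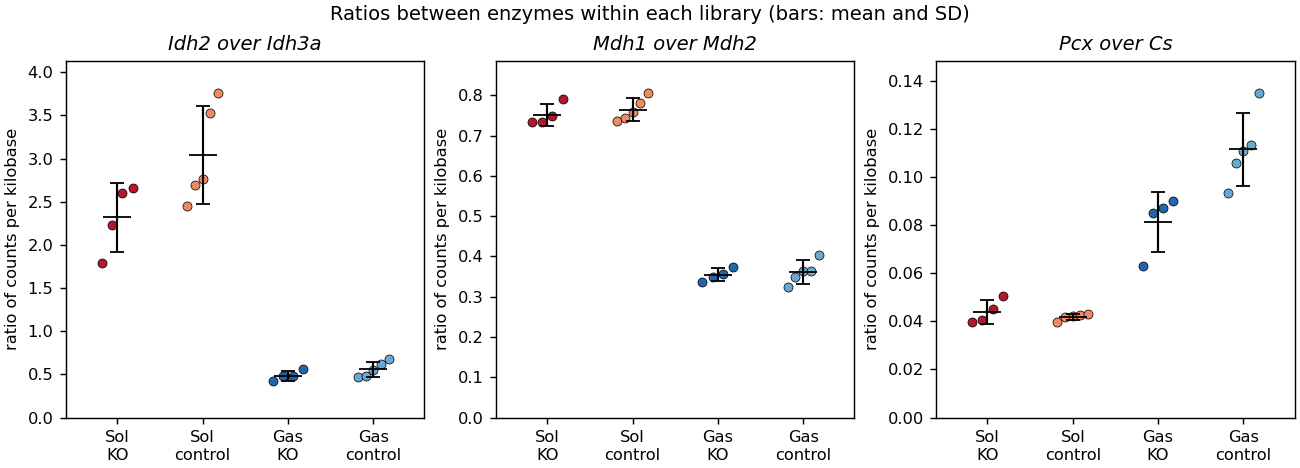
Ratios of counts per kilobase between 2 of the enzymes within each library, for soleus knockout, soleus control, gastrocnemius knockout and gastrocnemius control (y axes start at 0; points are libraries, bars the mean and SD). Idh2 over Idh3a and Mdh1 over Mdh2 separate the muscles, and Pcx over Cs is lower in the 4 knockout gastrocnemius libraries (0.0631 to 0.0900) than in the 5 controls (0.0932 to 0.135).

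Over all 18 libraries the profiles of the genes were compared by the root mean square (RMS) difference of their centred log2 CPM. The closest pairs were Cs and Mdh2 (RMS difference 0.05), Mdh2 and Fh1 (0.05) and Cs and Fh1 (0.08), while Idh3a and Suclg1 were 0.09 apart. Pcx and Idh2 were the farthest pair at 1.59. The measure depends on how much each gene varied. The SD of log2 CPM over the 18 libraries was 0.09 for Cs, 0.11 for Mdh2 and 0.13 for Fh1, against 1.06 for Idh2 and 0.60 for Pcx. The closest pairs are thus genes that varied little, while the profiles of Idh2 and Pcx are mostly set by the 2 muscles. All profiles share library depth and scaling.

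Among 18485 other genes, those most like each enzyme were named by the same measure. Cs was closest to Sdha, the flavoprotein subunit of succinate dehydrogenase (RMS 0.05), and Idh3g (0.06), both of the cycle itself. Mdh2 was closest to Sdha (0.04), the mitochondrial chaperonin Hspd1 (0.06) and Idh3g (0.06). Fh1 was closest to Atp5b and Atp5o, subunits of ATP synthase, and to Ndufs3 of complex I (0.06 each), and Suclg1 to Tmem9b and the outer membrane channel Vdac2 (0.06 each). Mdh1 was closest to Acadl, Acaa2 and Hadhb, enzymes of fatty acid oxidation (0.07, 0.08 and 0.10), and Idh2 to Actn2, a Z-disc actinin, Smtnl1 and Ldhb, the heart-type lactate dehydrogenase subunit (0.16, 0.17 and 0.17). Idh3a was closest to Eif2a, Qars and Higd2a (0.07 each), Ogdh to Actr1b, Mrps5 and Tom1 (0.07 each) and Pcx to Kif3c, Vps72 and Map3k10 (0.10, 0.12 and 0.13).

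The rest of the pathway was followed through 53 further genes in 5 lists. In the gastrocnemius 2 of the 53 passed the threshold in the knockout, both lower and both anaplerotic or cataplerotic enzymes, beside 3.78% of all genes (2.01% lower). So 2 of 53 is near the background and says little about the pathway. Me1, the cytosolic malic enzyme, which turns malate into pyruvate and makes NADPH, averaged 118 ± 10.3 CPM in knockout and 164 ± 13.4 CPM in control gastrocnemius (log2 -0.47, SE 0.08, adjusted p = 0.00598), and the knockout range of 104 to 127 CPM lay below the control range of 146 to 180 CPM. Pcca, a subunit of propionyl-CoA carboxylase, which like Pcx is a biotin enzyme feeding the cycle, averaged 25.5 ± 0.639 CPM in knockout and 30.5 ± 1.51 CPM in control gastrocnemius (log2 -0.26, SE 0.07, adjusted p = 0.0435). The Pcca call was lost when any 1 library was left out (adjusted p 0.0579 to 0.103) and at library totals (adjusted p = 0.124). The other 15 genes of that list, and all 13 other TCA cycle enzymes, 13 genes of pyruvate entry, 7 shuttle and carrier genes and 3 cytosolic counterparts, did not pass.

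List medians in the gastrocnemius knockout were -0.14 for the anaplerotic list, -0.03 for the other TCA enzymes, -0.05 for pyruvate entry and -0.02 each for the shuttle list and the cytosolic counterparts, beside 0.02 over all genes tested. The gene with the smallest p of each uncalled list was Sdhc of succinate dehydrogenase (log2 -0.18, adjusted p = 0.176), the pyruvate carrier Mpc1 (-0.25, adjusted p = 0.0902), the aspartate-glutamate carrier Slc25a13 (1.00, adjusted p = 0.0605) and ATP citrate lyase Acly (0.23, adjusted p = 0.125). Slc25a13 averaged only 1.11 ± 0.217 CPM in knockout and 0.554 ± 0.125 CPM in control gastrocnemius, and DESeq2 called it (adjusted p = 0.0176).

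In the soleus knockout none of the 53 genes passed by edgeR, beside 0.0553% of all genes. The smallest p of each list belonged to Ogdhl, an Ogdh paralogue (log2 -0.56, SE 0.12, adjusted p = 0.166), Me1 (-0.23, adjusted p = 0.477), Pdk2, a kinase that switches off pyruvate dehydrogenase (-0.17, adjusted p = 0.625), Slc25a13 (0.46, adjusted p = 0.632) and Acly (0.12, adjusted p = 0.737). Ogdhl averaged 5.04 ± 0.793 CPM in knockout and 7.49 ± 0.7998 CPM in control soleus, and DESeq2 called it (adjusted p = 0.00661). Of the 53 genes, none passed in the difference of knockout effects.

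Between the muscles of control mice, 8 of the 13 other TCA cycle enzymes were higher in the soleus and 0 lower, beside 27.4% and 21.9% of all genes with TMM. Library totals gave 11 and 0, beside 8386 higher and 2122 lower of all 18494 genes. DESeq2 size factors gave 5 and 1, beside 4647 and 4445 of all genes. Ogdhl had the largest shift of them (log2 2.30, SE 0.23, adjusted p = 4.0e-08), at low levels of 7.49 ± 0.7998 CPM in control soleus and 1.52 ± 0.286 CPM in control gastrocnemius. Sdhb, the iron-sulfur subunit of succinate dehydrogenase, followed (0.60, SE 0.09, adjusted p = 2.0e-05). The smallest called shifts were those of Dlst (0.19, adjusted p = 0.0143) and Idh3b (0.18, adjusted p = 0.0375). The calls of Dlst and Idh3b were lost with DESeq2 size factors (0.14 each, adjusted p = 0.0707 and 0.127). In the same comparison the median of the list was 0.19, beside 0.08 over all genes.

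Anaplerotic and cataplerotic genes were mixed, with 2 of 17 higher and 5 lower in the soleus, beside 27.4% and 21.9% of all genes. At library totals 7 were higher and 4 lower, beside 8386 and 2122 of all 18494 genes. The mitochondrial alanine transaminase Gpt2 averaged 49.5 ± 10.1 CPM in control soleus and 372 ± 46.2 CPM in control gastrocnemius (log2 -2.91, SE 0.26, adjusted p = 1.9e-07). Ampd1, the muscle AMP deaminase of the purine nucleotide cycle, averaged 194 ± 9.10 CPM in control soleus and 901 ± 38.3 CPM in control gastrocnemius (log2 -2.22, SE 0.08, adjusted p = 2.1e-15). Both lay on the same side as Pcx. The cytosolic transaminase Gpt (0.63, adjusted p = 7.8e-08) and methylmalonyl-CoA epimerase Mcee (0.78, adjusted p = 3.6e-08) were higher in the soleus.

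At the entry of pyruvate, 9 of 13 genes were higher in the soleus and 2 lower, beside 27.4% and 21.9% of all genes. DESeq2 size factors gave 7 and 2, and library totals 10 and 2. With TMM the kinases Pdk1 (log2 1.205, adjusted p = 8.1e-12) and Pdk3 (0.71, adjusted p = 0.0126) were higher. The level of Pdk3 was low, at 1.47 ± 0.187 CPM in control soleus and 0.898 ± 0.192 CPM in control gastrocnemius. Pdk2 (-0.45, adjusted p = 7.1e-05) and the phosphatase Pdp1 (-0.95, adjusted p = 2.6e-07) were lower. Of the 7 shuttle and carrier genes, 4 were higher and 2 lower, beside the same shares of all genes. Slc25a13 (2.27, adjusted p = 7.1e-08) and the cytosolic aspartate transaminase Got1 (0.71, adjusted p = 1.0e-07), which works with Mdh1 in the malate-aspartate shuttle, were higher, and the citrate carrier Slc25a1 (-0.48, adjusted p = 0.00825) and Slc25a12 (-0.19, adjusted p = 0.0219) lower. Slc25a13 averaged only 2.68 ± 0.608 CPM in control soleus and 0.554 ± 0.125 CPM in control gastrocnemius. At library totals Slc25a12 changed sign (0.08) and Slc25a1 lost its call, so that 5 were higher and 0 lower. Over all 18494 genes library totals gave 8386 higher and 2122 lower. Acly was the 1 of 3 cytosolic counterparts higher in the soleus (0.19, adjusted p = 0.0292), beside 27.4% of all genes. It was not called with DESeq2 size factors (adjusted p = 0.0802).

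In knockout mice the same lists had 7 of 13 other TCA enzymes higher in the soleus and 0 lower, 7 and 2 of 13 pyruvate entry genes, 3 and 5 of 17 anaplerotic genes, 5 and 0 of 7 shuttle genes and 0 and 0 of 3 cytosolic counterparts, beside 19.2% of all genes higher and 18.5% lower. Library totals gave 11 and 0 other TCA enzymes, 9 and 2 pyruvate entry genes, 6 and 4 anaplerotic genes, 6 and 0 shuttle genes and 3 and 0 cytosolic counterparts, with 6339 genes higher and 1751 lower over all, against 3560 higher and 3427 lower with TMM. Ogdhl (log2 1.77), Gpt2 (-2.67), Ampd1 (-1.91), Pdk1 (1.05) and Slc25a13 (1.73) led their lists. These comparisons share no libraries with those of control mice but share the same 4-group fit.

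**Figure D5:**
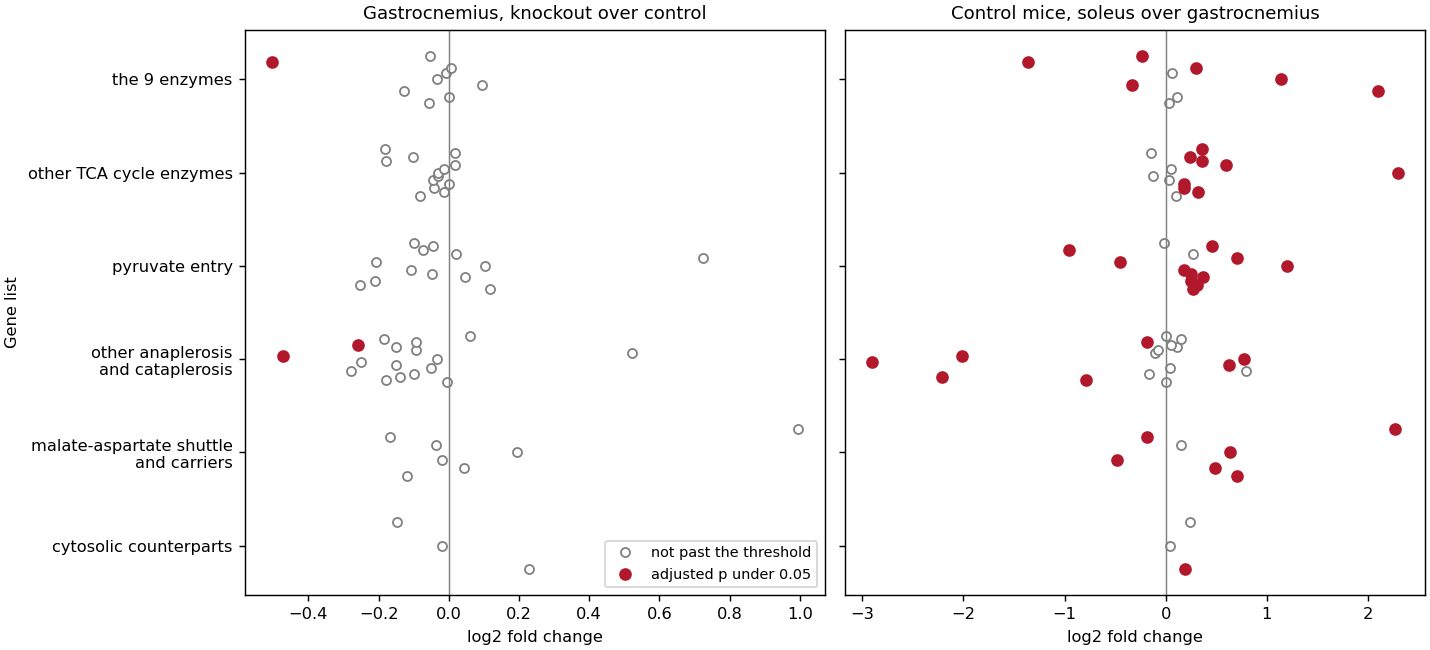
Log2 fold changes of the 9 enzymes and of the 53 further genes by list, for knockout over control gastrocnemius (left) and for soleus over gastrocnemius in control mice (right), TMM scaling; filled red points passed the threshold and open points did not. On the left Pcx (-0.50), Me1 (-0.47) and Pcca (-0.26) are filled; on the right 6 of the 9 enzymes are, and at library totals Suclg1 and Slc25a12 change sign there.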

How the data were processed

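Total RNA of 18 mouse muscles was depleted of ribosomal RNA and sequenced, per the labels' protocols. Each library's deposited file lists counts of reads by Ensembl gene; STAR 2.5.1a, featureCounts 1.4.6-p5 and GRCm38 are named in the submitters' processing notes. Which annotation release was used, and how strand and multi-mapped reads were handled, is not given in the sources here. Of 41388 features, 40254 took a symbol from GENCODE mouse release 21 (2 list genes by a RefSeq synonym).

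The 9 genes and all lists were chosen with earlier results of these data known. Other genes are named if past the threshold, or else by the smallest p of each list (knockout comparisons), by the largest and smallest called log2 fold changes, 2 each per list (muscle comparisons), or as the 3 genes with the smallest RMS difference of centred log2 CPM (pseudocount 0.5). Some of the genes this rule names are not reported here. Counts were tested in R 4.3.3 with edgeR 4.0.16: TMM, filterByExpr (minimum count 10, minimum total 15), robust quasi-likelihood F-test, Benjamini-Hochberg adjustment over all genes tested, threshold 0.05. Knockout comparisons used the 9 libraries of a muscle, and the others all 18 in 4 groups. Intervals are 95%. Every adjusted p is from edgeR unless another test is named. DESeq2 1.42.0, limma 3.58.1 (voom), other scalings, no filter, other sets of samples and leaving out each library were alternatives. The edgeR, DESeq2 and voom steps were tested on simulated data, where DESeq2 made more false calls than edgeR. No pair of libraries within a group came near sampling noise (19.7 to 141.5 chi-square units for each gene), and none was counted as a repeat.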

Additional observations from a re-analysis of the deposited data

Results flagged for a closer look

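Among 144 groups of 4 or 5 libraries (each enzyme, named pathway gene and within-library ratio in each group), 6 held a library far from the others, close to the 1 in 20 groups that chance flags. Mdh1 had 581.7 CPM in soleus knockout 39, against 479.6 to 494.2 CPM in the other 3 knockout soleus libraries, and Suclg2 had 53.88 CPM in the same library, against 41.76 to 42.11 CPM. Ampd1 had 177.5 CPM in soleus knockout 42, against 228.8 to 234.1 CPM in the others. Got1 had 258.2 CPM in soleus knockout 40, against 328.6 to 342.7 CPM. Pdk3 had 2.367 CPM in gastrocnemius knockout 7, against 1.14 to 1.266 CPM, and Slc25a1 had 3.205 CPM in soleus control 36, against 2.651 to 2.80 CPM.

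The knockout effect on Pcx differed between the muscles by 0.5681 on the log2 scale, soleus minus gastrocnemius, by edgeR's test of the difference itself (adjusted p = 0.0380, missed when any of 15 of the 18 libraries was left out).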

How the results depend on the processing

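The Pcx call in knockout gastrocnemius held in all 16 alternatives (log2 -0.56 to -0.42), and the calls of Idh2, Mdh1, Ogdh and Pcx between the muscles in all 26. DESeq2 called 1235 genes in gastrocnemius, 166 in soleus and 52 in the difference of knockout effects; soleus gave 48 with no filter and 28 with all 18 libraries. Leaving out 1 library gave 206 to 1080 calls in gastrocnemius (moved over 1.5 times by each library but control 3; 1080 without knockout 2), 3 to 66 in soleus (66, 4 and 3 without knockout 35, control 34 and control 37) and 2 to 23 in the difference (moved by each library but knockouts 7, 9, 35 and 40), with 0 to 1 of the 9 genes called there; library totals gave 0 of the 9. In the ratio tests, leaving out 1 library gave Pcx over Cs differences of -0.523 to -0.343 in gastrocnemius knockouts. Medians gave -0.366 there and -1.395 (Pcx over Cs), 1.064 (Mdh1 over Mdh2) and 2.323 (Idh2 over Idh3a) between control muscles. None of these passed the threshold. The groups did not overlap, and the smallest p that fewer splits or tied medians allow was too large to pass beside the other ratio tests.

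Small values changed sign. At library totals the gastrocnemius knockout values were 0.0045 (Cs), 0.00838 (Suclg1), 0.0617 (Fh1), 0.0271 (Mdh1) and 0.0549 (Mdh2), the soleus value 0.0141 (Mdh1), the muscle values 0.0276 (Suclg1, controls), 0.0454 (Suclg1, knockouts) and 0.0769 (Slc25a12), and the differences of effects -0.0189 (Fh1), -0.0129 (Mdh1) and -0.0126 (Mdh2). Ogdh in gastrocnemius was -0.00306 with DESeq2 or its size factors, -0.00235 without Ttn and mitochondrial genes and -0.00649 with no filter. Soleus values were -0.00113 for Cs with all 18 libraries and 0.000222 for Mdh1 without Ttn and mitochondrial genes. Cs between control muscles was -0.0076 with DESeq2 size factors, -0.00759 with DESeq2 and -0.00612 with control libraries only. The Idh3a difference of effects was 0.0240 with DESeq2 or its size factors and 0.00143 without Ttn and mitochondrial genes.

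Leaving out 1 library, gastrocnemius knockout values ran from -0.0328 to 0.0204 (Ogdh), -0.0599 to 0.0520 (Fh1), -0.0981 to 0.0152 (Mdh1) and -0.0429 to 0.0426 (Mdh2). Soleus values ran from -0.0384 to 0.0372 (Cs), -0.0494 to 0.0111 (Ogdh), -0.0696 to 0.0795 (Suclg1), -0.0524 to 0.0922 (Fh1), -0.0712 to 0.0306 (Mdh1) and -0.0560 to 0.0704 (Mdh2). Cs between control muscles ran from -0.0149 to 0.0653. Differences of effects ran from -0.0834 to 0.0586 (Idh3a), -0.0651 to 0.0023 (Ogdh), -0.0260 to 0.1307 (Suclg1), -0.0609 to 0.1168 (Fh1), -0.0469 to 0.1248 (Mdh1) and -0.0583 to 0.0962 (Mdh2). Ratio differences ran from -0.0637 to 0.0158 (Mdh1 over Mdh2, gastrocnemius) and -0.0035 to 0.1115 (Pcx over Cs, soleus). None of the values in these 2 paragraphs was called in the fits reported above except Suclg1 and Slc25a12 between control muscles.

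Groups of 4 or 5 libraries limit all tests, and intervals cover the spread between libraries only. The groups share no replicate numbers, so the reported tests use no block. The titles number gastrocnemius 1 to 9 and soleus 34 to 42 with genotypes in the same order, 33 apart, and deviations from the group means correlated best within these pairs for 9 of 9 (0.0802 to 0.434, 8 of them over 0.1), a hint from the data and not the design. A replicate block by these pairs, added after seeing the data, gave 7522 calls between the muscles of knockout mice, 9545 between those of control mice and 32 in the difference of effects, with Pcx among them (0.57, adjusted p = 0.0119 by edgeR), and changed no call of the 9 genes.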

Other observations

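Mitochondrially encoded genes, which stayed in the scaling and the tests above, took 9.66 to 12.7% of counts in knockout soleus and 9.43 to 10.4% in control soleus, and 7.40 to 8.37% in knockout gastrocnemius and 7.501 to 8.87% in control gastrocnemius. Titin (Ttn) took 11.9 to 14.7% of counts in knockout soleus and 14.3 to 15.1% in control soleus, and 6.76 to 12.6% in knockout gastrocnemius and 7.26 to 12.1% in control gastrocnemius. Leaving both out before scaling kept the Pcx call in knockout gastrocnemius (log2 -0.51, adjusted p = 0.00674).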
